A study of Mus musculus with 272 samples.

Results

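The genes described here are 8 microRNA genes of skeletal muscle and of its stem cells: Mir206, Mir133b, Mir1a-1, Mir133a-2, Mir1a-2, Mir133a-1, Mir489 and Mir31. They were taken by gene name from the GENCODE M21 annotation of the mouse genome (mm10), which holds 2202 microRNA genes among 55413 genes on the 21 assembled chromosomes. For each one, every peak over the gene or within 10 kb on either side was collected from 8 chromatin libraries, and so was every peak within 3 kb of a start site of any gene that contains it, called its host gene here. The members were picked by name and not by a measured value, but earlier results of these data were known when they were chosen.

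The study edited muscle stem cells (MuSCs) in mice with CRISPR-Cas9, and 8 of its 272 samples provide the peak lists of chromatin used here: 2 libraries each of ATAC-seq, which marks open DNA, and of ChIP-seq for H3K4me3, H3K27ac and H3K27me3. The study's methods describe the isolation of its MuSCs as a sort of GFP+ cells from digested hindlimb muscle of Pax7Cas9 mice, in which Pax7Cre switches on a Cas9-EGFP transgene at the Rosa26 locus. The labels of these libraries name skeletal muscle as the tissue and give no age, AAV treatment or animal number. The protocols of the chromatin assays do not repeat the sort. The labels set no conditions against each other within an assay, and the replicate libraries may or may not come from separate animals.

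MicroRNAs are cut from hairpins in longer transcripts by Drosha and Dicer and then guide Argonaute proteins to messenger RNAs that pair with the seed of the microRNA. miR-1, miR-133 and miR-206 are the myomiRs, made from 3 loci that each carry a miR-1 or miR-206 hairpin beside a miR-133 hairpin; they are best known in differentiating and mature muscle, where miR-1 and miR-206, which share their seed, act on Pax7 and miR-133 acts on Srf. miR-489 and miR-31 are known from quiescent MuSCs, where the former represses Dek and the latter holds back Myf5.

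The mature microRNAs are printed with the seed (bases 2 to 8) in capitals, the part that selects the targets. The set of RefSeq mature sequences (GRCm38.p6) used here covered 5 of the 8 members, and 1 arm of each is printed. For Mir1a-1 that is the 5p arm, whose seed is not the one that miR-1 and miR-206 share. Mir133a-1, Mir133a-2, Mir1a-2 and miR-1a-3p had no entry in this set, which does not show that RefSeq lacks them.
mmu-miR-206-3p: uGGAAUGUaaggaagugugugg
mmu-miR-133b-3p: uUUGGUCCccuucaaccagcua
mmu-miR-1a-1-5p: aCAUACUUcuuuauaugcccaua
mmu-miR-489-3p: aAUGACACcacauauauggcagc
mmu-miR-31-5p: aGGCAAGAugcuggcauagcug

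The 8 genes lie at 5 loci. Mir206 (ENSMUSG00000065559.1, chr1:20679010-20679082, plus strand) and Mir133b (ENSMUSG00000065480.1, chr1:20682769-20682887, plus strand) were 3686 bp apart. Mir1a-1 (ENSMUSG00000070144.1, chr2:180389048-180389124, plus strand) and Mir133a-2 (ENSMUSG00000065460.1, chr2:180398379-180398482, plus strand) were 9254 bp apart. Mir1a-2 and Mir133a-1, both on the minus strand of chromosome 18, were 2504 bp apart. Mir489 (ENSMUSG00000070107.1, chr6:3721897-3722003, minus strand) and Mir31 (ENSMUSG00000065408.1, chr4:88910557-88910662, minus strand) lay alone among the members. The windows of paired genes overlap, so that 1 peak can count for both, and the 8 members are not 8 independent observations.

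Open chromatin was the feature found most often around these genes. An ATAC-seq peak lay within 10 kb in both replicates at 6 of the 8 members, all but Mir489 and Mir31, against 52.6% of all annotated microRNA genes. H3K4me3, the mark of promoters, and H3K27ac, the mark of active promoters and enhancers, were each found in both replicates at 2 of 8, Mir206 and Mir133b, against 30.2% and 25.3%. H3K27me3, the Polycomb mark of repressed genes, was found in both replicates at 0 of 8, against 3.22%. Counted as 5 loci, 3 had ATAC-seq, 1 had H3K4me3 and 1 had H3K27ac.

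By state, Mir206 and Mir133b carried all 3 active features, as did 22.9% of microRNA genes. Mir1a-1, Mir133a-2, Mir1a-2 and Mir133a-1 had open chromatin with no histone mark in both replicates, as did 20.6%. Mir489 and Mir31 had no feature in both replicates, as did 46.5%. Of all microRNA genes, those inside another gene had ATAC-seq in 59.1%, H3K4me3 in 34.9%, H3K27ac in 30.1% and H3K27me3 in 3.32%, and those outside other genes in 38.5%, 20.2%, 14.9% and 3.01%. By GENCODE M21 the members fall in the former class except Mir1a-1 and Mir133a-2.

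**Figure D1:**
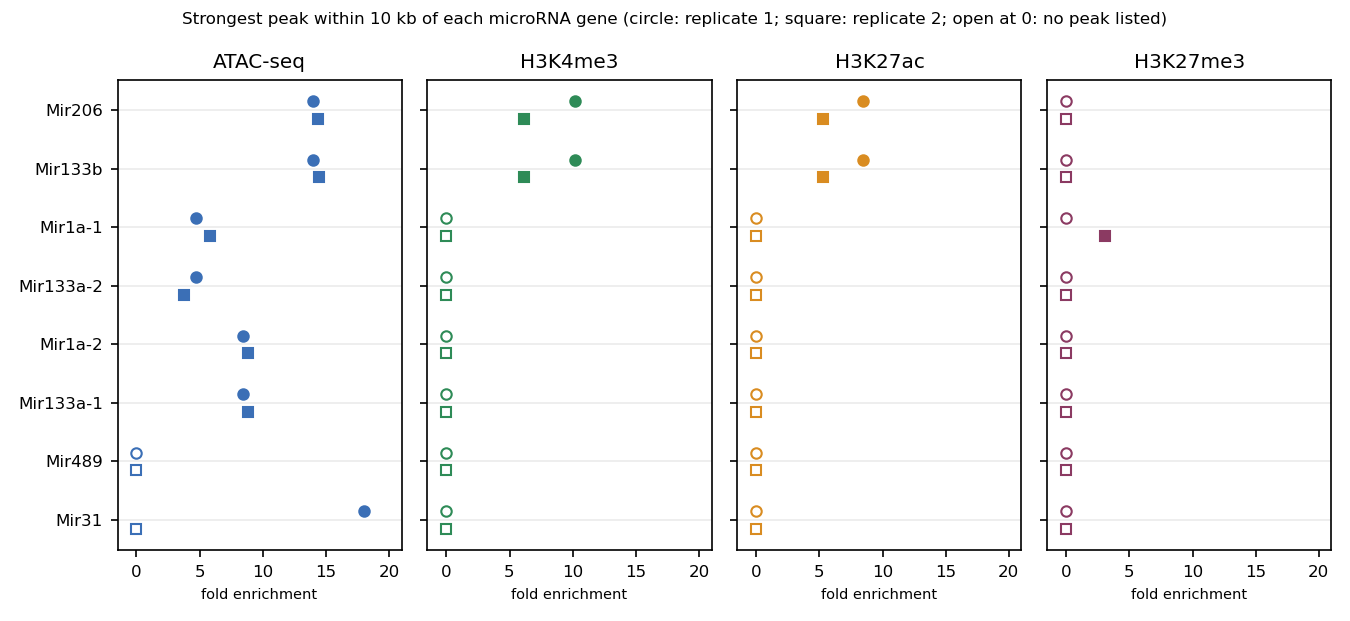
Fold enrichment (horizontal axis, authors' value at the peak summit) of the strongest peak within 10 kb of each of the 8 microRNA genes (rows), by feature (panels) and replicate (circle for 1, square for 2; open symbols at 0 mean that no peak is listed). Only Mir206 and Mir133b have H3K4me3 and H3K27ac peaks, and the Mir31 ATAC-seq peak of 18.1-fold is in replicate 1 alone.

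No member had a peak over the hairpin gene itself in both replicates of any feature, where 5.77% of microRNA genes had one for ATAC-seq, 8.17% for H3K4me3, 5.45% for H3K27ac and 0.409% for H3K27me3. Mir206 came closest. In H3K27ac replicate 2 a peak of 546 bp and 5.27-fold enrichment lay across the gene, whereas in replicate 1 a peak of 256 bp and 4.22-fold ended 118 bp upstream of it. With replicate 2 alone the count for H3K27ac is therefore 1 of 8.

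Mir206, whose product is specific to skeletal muscle and opposes Pax7, stood in the most marked of the 5 loci together with Mir133b. Both lie in the long noncoding RNA gene Gm28653 (chr1:20669882-20684298, plus strand), which RefSeq calls Lincmd1 and which is known as a sponge for miR-133 in differentiating muscle. The annotation gives Gm28653 2 start sites, the upstream one at base 20669882 and the other at base 20679023, inside the Mir206 hairpin. Mir133b lies in an exon of both transcripts, and Mir206 lies in an intron of the longer one and partly in an exon of the shorter one.

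All 5 ATAC-seq regions within 10 kb of Mir206 or Mir133b were found in both replicates. The nearest to Mir206 reached to 651 bp upstream in replicate 1 and 668 bp in replicate 2, with 14.01-fold and 14.4-fold enrichment and −log10 q of 93.1 and 112. A region about as strong (13.9-fold and 14.4-fold) lay farthest downstream of Mir133b. Both exceeded the median strongest ATAC-seq peak of microRNA genes that have one, which was 10.9-fold in replicate 1 and 10.4-fold in replicate 2. The region at the upstream start site of Gm28653 was the weakest of the 5 in both replicates, at 5.09-fold and 6.45-fold. The remaining 2 were 11.8-fold and 10.5-fold about 4.2 kb upstream of Mir206, and 7.31-fold and 6.78-fold about 3.1 kb downstream of Mir133b. No region at this locus was open in 1 replicate only.

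Within 10 kb of the hairpins, the histone marks lay after the upstream start of Gm28653 and reached no farther than Mir206 and the bases just past it. H3K4me3 formed 1 block in both replicates, 3302 bp wide with 10.2-fold enrichment in replicate 1 and 3132 bp wide with 6.15-fold in replicate 2, beginning 492 bp and 615 bp after the upstream start site. It covered 16.5% and 15.6% of the Mir206 window but only 4.51% and 4.28% of the Mir133b window, whose edge cuts it. A second H3K4me3 peak, 408 bp wide and 3.29-fold, was in replicate 1 alone. For its strength the block ranked low: 78.4% and 85.5% of the microRNA genes with H3K4me3 nearby had a peak as strong or stronger. With a window of 5 kb it falls outside, and 0 of 8 members have H3K4me3. With at least 50% of the peak required inside the window, 1 of 8 has it.

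H3K27ac at this locus differed between the replicates, with 2 regions found in both and 3 in replicate 1 alone. Replicate 1 held 5 peaks within 10 kb of Mir206, a number that 1.23% of microRNA genes reach, and replicate 2 held 3, which 5.13% reach. The 2 regions in both were 8.43-fold and 4.63-fold at the open region 4.2 kb upstream of Mir206, and 4.22-fold and 5.27-fold at Mir206 itself. In replicate 1 a single peak covered that open region. In replicate 2 the peak of 4.63-fold and another of 4.41-fold overlapped its 2 edges and not its summit. The 3 regions of replicate 1 alone were 5.85-fold and 4.39-fold within the H3K4me3 block and 3.08-fold at the edge of the open region nearest to Mir206. By its strongest peak, H3K27ac here was moderate in replicate 1 and low in replicate 2. Of microRNA genes that have H3K27ac nearby, 64.6% and 84.6% reached the same fold. Mir133b, farther downstream, had 3 H3K27ac peaks in its window in each replicate. The nearest H3K27me3 peaks to Mir206 were 1438 kb and 1257 kb away in the 2 replicates.

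**Figure D2:**
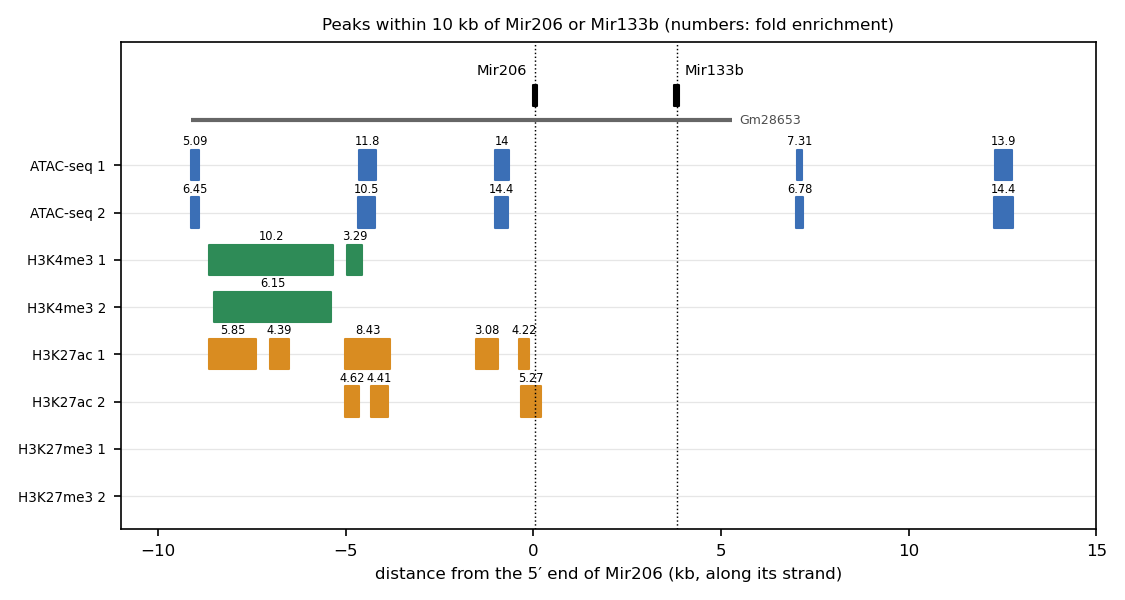
Peaks within 10 kb of Mir206 or Mir133b in the 8 libraries (rows; 1 and 2 are the replicates) by distance in kb from the 5′ end of Mir206, with the fold enrichment above each bar; black boxes are the hairpins and the grey line is Gm28653. The 5 ATAC-seq regions line up between replicates, and the H3K4me3 block fills the stretch after the upstream start site.

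The open region nearest to Mir206 and the promoter of Lincmd1 are printed because an ATAC-seq peak of both replicates lies in each, upstream of the hairpin and at the start of its host. Capitals mark the E-box CAGCTG, the form bound by myogenic bHLH factors, and the MEF2 site, searched on both strands. The first sequence is 200 bases around the mean summit of the 2 replicates (chr1:20678042-20678241, GRCm38.p6, plus strand), all of it inside the peaks of both. The second is the RefSeq promoter, from 250 bases before the start site to 50 after (chr1:20669632-20669931, plus strand).
Open region upstream of Mir206: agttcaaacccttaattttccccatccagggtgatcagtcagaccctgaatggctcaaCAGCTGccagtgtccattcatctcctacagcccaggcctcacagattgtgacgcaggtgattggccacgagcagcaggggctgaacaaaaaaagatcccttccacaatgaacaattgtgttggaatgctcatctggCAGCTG
Promoter of Lincmd1: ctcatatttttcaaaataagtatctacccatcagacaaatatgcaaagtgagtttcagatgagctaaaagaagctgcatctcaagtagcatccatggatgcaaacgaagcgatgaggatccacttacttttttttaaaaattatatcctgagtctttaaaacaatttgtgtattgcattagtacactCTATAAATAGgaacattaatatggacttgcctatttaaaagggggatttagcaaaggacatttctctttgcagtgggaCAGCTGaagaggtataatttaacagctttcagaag
ATAC-seq peaks covered 35 of the 300 bases of the Lincmd1 promoter in replicate 1 and 47 in replicate 2, at its downstream end. The open region held 2 E-boxes. The Lincmd1 promoter held 1 E-box, 15 bases after the start site and inside the ATAC-seq peak of both replicates, and 1 MEF2 match 63 bases before the start site, outside the peaks. Of the 32851 RefSeq promoters of this length, 16.3% held the E-box and 3.19% the MEF2 match.

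Mir1a-1 and Mir133a-2, which give miR-1 and miR-133a and whose products are made together in heart and skeletal muscle, had few and weak open regions and no active histone mark. One region lay upstream of Mir1a-1, ending 3.57 kb and 3.52 kb from it, with 5.80-fold enrichment in replicate 2 and, in replicate 1, 2 narrow peaks of which the stronger was 3.87-fold. The other lay between the hairpins, 4.69-fold in replicate 1 and 3.76-fold in replicate 2. Both are at the low end: 96.1% of the microRNA genes with an ATAC-seq peak nearby had one at least as strong as the strongest near Mir1a-1 in replicate 1, and 84.0% in replicate 2. For Mir133a-2, whose window reaches only the region between the hairpins, the shares were 96.1% and 99.7%.

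The histone marks were distant at this locus. From Mir1a-1 the nearest H3K4me3 peak was 54.1 kb away in both replicates, and the nearest H3K27ac peak was 115 kb and 116 kb away. H3K27me3 had a single peak within 10 kb, in replicate 2, of 155 bp with 3.08-fold enrichment and −log10 q of 0.451, which is above a q of 0.05. With replicate 2 alone the H3K27me3 count is therefore 1 of 8 members, and with both it is 0.

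GENCODE M21 gives these 2 hairpins no host gene, but RefSeq places both in Mir1a-1hg (chr2:180385604-180401802, plus strand). The upstream open region ends just before its start, 130 bp away in replicate 1 and 80 bp in replicate 2. The RefSeq promoter (chr2:180385354-180385653, GRCm38.p6, plus strand) is printed because the only open region upstream of Mir1a-1 within 10 kb lies partly in it, with the E-box in capitals.
Promoter of Mir1a-1hg: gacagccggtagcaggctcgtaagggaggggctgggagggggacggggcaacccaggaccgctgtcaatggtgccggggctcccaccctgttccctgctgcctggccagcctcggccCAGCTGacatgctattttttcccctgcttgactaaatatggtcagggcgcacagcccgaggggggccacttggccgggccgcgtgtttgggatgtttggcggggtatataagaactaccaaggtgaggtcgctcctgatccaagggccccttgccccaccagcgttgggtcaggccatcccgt
ATAC-seq peaks covered 84 of its 300 bases in replicate 1 and 170 in replicate 2, and no histone mark touched it. The E-box, 133 bases before the start site, lay inside the peak of replicate 2 and not in those of replicate 1.

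Mir1a-2 and Mir133a-1, the second locus for the same pair of products, had more open regions and again no histone mark. In all, 5 regions were open in both replicates and 1 in replicate 1 alone (4.77-fold). One lay between the hairpins, 988 bp and 971 bp downstream of Mir1a-2, with 7.30-fold and 8.87-fold enrichment. The other 4 lay upstream of Mir1a-2, at 7.18-fold and 6.18-fold, 3.87-fold and 3.76-fold, 8.43-fold and 8.84-fold, and 6.57-fold and 8.25-fold in replicates 1 and 2. The 6 and 5 peaks within 10 kb are numbers that 10.4% and 8.77% of microRNA genes reach, the most of any member. Their strength was moderate, since 67.9% and 61.0% of microRNA genes with an ATAC-seq peak had one as strong or stronger.

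Mir1a-2 and Mir133a-1 lie in introns of 2 genes on opposite strands. Mir133a-1hg, an antisense RNA gene, is on their own strand, and Mib1, which encodes a ubiquitin ligase that activates Notch ligands in signal-sending cells, is on the other. From Mir133a-1 the nearest H3K4me3 peaks were 55.0 kb and 55.4 kb away and the nearest H3K27ac peaks 55.7 kb and 55.8 kb away, and these were the peaks at the Mib1 promoter. The nearest H3K27me3 peaks were 264 kb and 77.2 kb away.

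**Figure D3:**
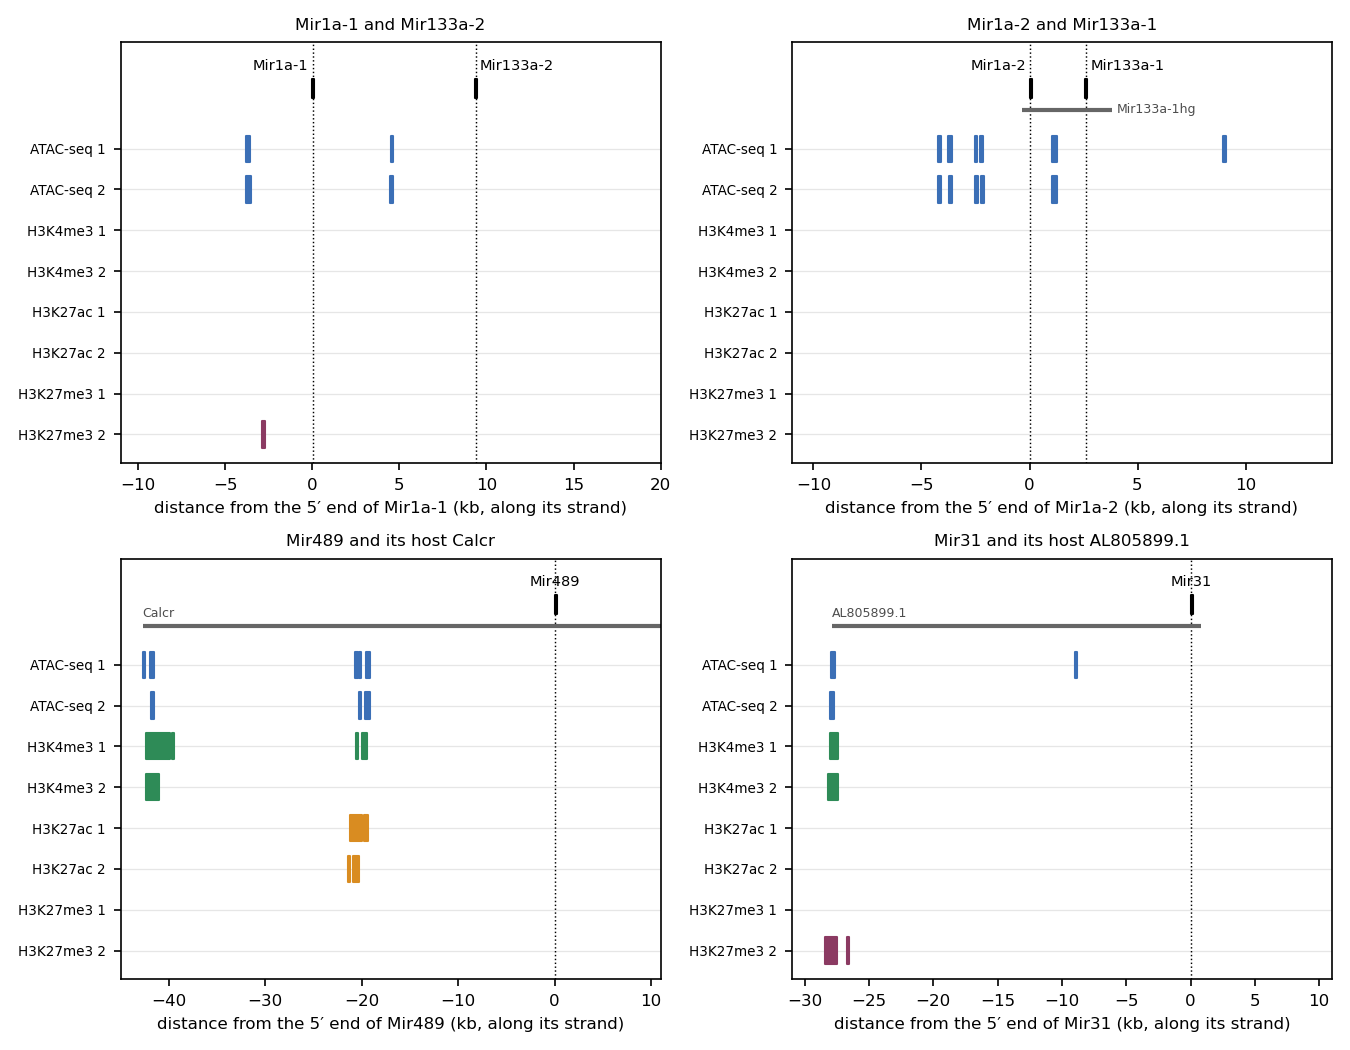
Peaks in the 8 libraries (rows) by distance in kb from the 5′ end of the named microRNA gene at the other 4 loci; black boxes are hairpins and grey lines host genes of GENCODE M21 (Mib1, which spans the whole second panel, is not drawn). The upper panels show peaks within 10 kb, the lower panels peaks of the host gene and 3 kb around it, and the narrowest peaks are drawn at a minimum width. Open regions without active histone marks surround the upper pairs, and the lower panels are empty near Mir489 and hold 1 peak near Mir31.

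The plot of ATAC-seq peak numbers sets the members among all 2202 microRNA genes. The median gene had 1 ATAC-seq peak within 10 kb in each replicate. In replicate 1, 792 genes had none, Mir489 among them, and in replicate 2, 1014 had none, Mir489 and Mir31 among them. Mir206 and Mir133b had 4 peaks in each replicate, which 23.9% and 15.9% of genes reach.

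**Figure D4:**
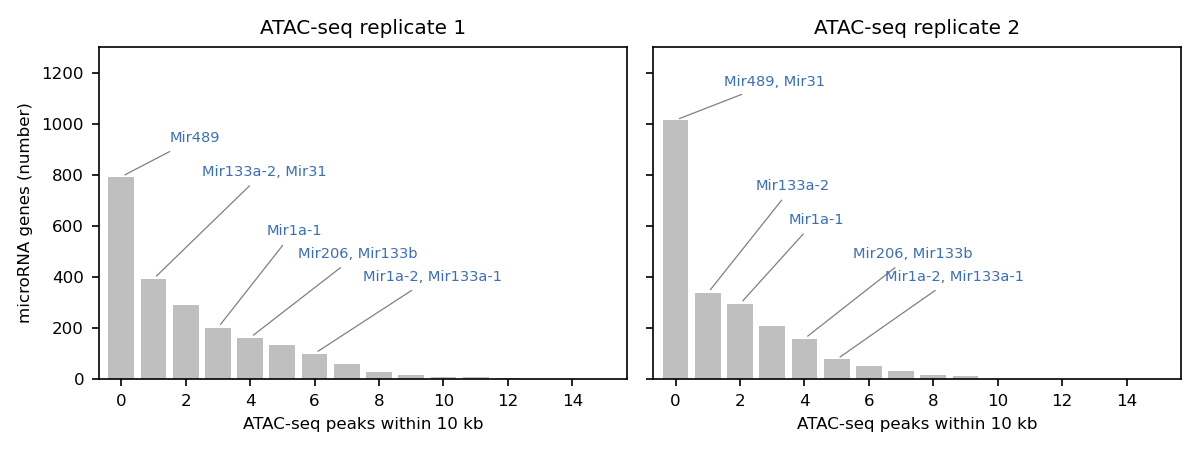
Number of microRNA genes (vertical axis) by the number of ATAC-seq peaks within 10 kb (horizontal axis) in each replicate, with the members named at their bars. Mir1a-2 and Mir133a-1 have 6 and 5 peaks, and Mir489 has 0 in both replicates.

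Across the 12 regions open in both replicates at the 3 myomiR loci, the E-box CAGCTG was found within 200 bases around the summit in 9 regions by the summits of replicate 1 and in 7 by those of replicate 2. Of all ATAC-seq summits, 22.2% in replicate 1 and 27.1% in replicate 2 had it. By locus, 4 and 3 of 5 regions held it around Mir206 and Mir133b, 2 and 2 of 2 around Mir1a-1 and Mir133a-2, and 3 and 2 of 5 around Mir1a-2 and Mir133a-1. The AP-1 site TGANTCA was found in 2 and 3 of the 12, against 16.8% and 20.3% of all summits. The MEF2 site was found in 2 and 1 of the 12, against 1.82% and 1.13%. These are matches of letters, counted with no test, and the windows of the replicates largely share their bases.

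Mir489, expressed in quiescent MuSCs, had no peak of any feature within 10 kb in any of the 8 lists. It shares this with 750 other microRNA genes, leaving out those within 20 kb of a member. Mir489 lies in an intron of Calcr (chr6:3685680-3764714, minus strand), which encodes the calcitonin receptor, a surface marker of quiescent MuSCs, and both are on the same strand. The hairpin is closest to a marked stretch inside Calcr, 19.2 kb and 19.1 kb upstream by ATAC-seq, where the peaks were 17.9-fold and 17.01-fold, stronger than at any myomiR locus.

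That stretch carried H3K27ac in both replicates, unlike the promoter of the gene. Replicate 1 had H3K27ac peaks of 4.23-fold and 8.04-fold there, and replicate 2 had peaks of 5.27-fold and 3.87-fold. H3K4me3 was found there in replicate 1 only, at 4.14-fold and 2.90-fold. The nearest annotated start site of Calcr was 11.4 kb from the stronger ATAC-seq peak in both replicates.

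At the Calcr promoter the 2 replicates had ATAC-seq peaks of 12.2-fold and 10.4-fold and H3K4me3 peaks of 18.3-fold and 13.2-fold. Neither replicate had H3K27ac or H3K27me3 within 3 kb of any of its 4 start sites. Both ATAC-seq peaks covered the start site at base 3763630, 41.6 kb upstream of Mir489. The RefSeq promoter there (chr6:3763574-3763873, GRCm38.p6, minus strand) is printed because it is a promoter of the host gene that was open in both replicates. It has no capitals since it held none of the 3 motifs.
Promoter of Calcr: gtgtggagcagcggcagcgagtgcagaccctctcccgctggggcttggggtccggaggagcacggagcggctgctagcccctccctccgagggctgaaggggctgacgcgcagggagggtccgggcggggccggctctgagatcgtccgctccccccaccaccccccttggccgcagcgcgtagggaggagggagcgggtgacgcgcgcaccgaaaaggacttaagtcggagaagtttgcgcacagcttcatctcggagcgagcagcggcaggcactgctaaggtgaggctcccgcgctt
All 300 bases lay inside the ATAC-seq and H3K4me3 peaks of both replicates. Another RefSeq promoter of Calcr (chr6:3764664-3764963) had 0 bases in any of the 8 lists. A weak ATAC-seq peak of replicate 1, at 3.71-fold, lay outside it and 75 bp from the start site at base 3764658.

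Mir31, whose product holds back Myf5 in quiescent MuSCs, had 1 peak within 10 kb, an ATAC-seq peak of replicate 1 at chr4:88919509-88919628, 8846 bp upstream. At 120 bp wide, 18.1-fold and a −log10 q of 52.1, it was the highest fold near any member, and 13.6% of microRNA genes with an ATAC-seq peak in that replicate had one as strong. Replicate 2 had no ATAC-seq peak nearer than 18.8 kb to it. Mir31 therefore counts as unmarked, and with replicate 1 alone 7 of 8 members have ATAC-seq.

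Mir31 lies in an exon of AL805899.1 (chr4:88909855-88938521, minus strand), a long noncoding RNA gene on the same strand. The promoter of this host, its H3K4me3 peak 27.4 kb upstream of the hairpin in both replicates, was open and had H3K4me3. The strongest ATAC-seq peaks were 9.87-fold and 4.93-fold, and H3K4me3 peaks 11.1-fold and 8.02-fold. These ATAC-seq peaks did not overlap each other, though each overlapped another peak of the other replicate. H3K27ac was in neither replicate. H3K27me3 had 2 peaks in replicate 2, of which the stronger was 4.49-fold, and none in replicate 1. RefSeq gives the host as Gm49890, with a start farther upstream at base 88942042, and within 3 kb of that start neither replicate had ATAC-seq, H3K4me3 or H3K27ac. The weaker H3K27me3 peak of replicate 2, at 4.11-fold, reached within 3 kb of it.

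Over the 5 host genes of GENCODE M21, ATAC-seq promoter peaks in both replicates were found at 5, H3K4me3 at 4 (all but Mir133a-1hg), H3K27ac at 2 (Gm28653 and Mib1) and H3K27me3 at 0. Among all protein-coding genes the shares are 67.8%, 60.8%, 46.6% and 4.81%, among lincRNA genes 30.1%, 13.2%, 10.1% and 2.02%, and among antisense RNA genes 50.4%, 32.3%, 24.7% and 4.70%. With replicate 2 alone, H3K27me3 is at 1 host promoter, that of AL805899.1. With a promoter of 1 kb on either side of a start site, ATAC-seq is at 4 of 5, since the nearest peaks to the start of Mir133a-1hg were 1390 bp and 1373 bp away. The strongest host promoter was Mib1, with H3K4me3 of 33.8-fold and 27.9-fold and H3K27ac of 24.5-fold and 22.1-fold. Gm28653 had ATAC-seq and H3K27ac near both of its start sites, and H3K4me3 near the upstream one alone. Within 3 kb of the upstream one, as RefSeq gives Lincmd1, the strongest ATAC-seq peaks were 9.42-fold and 10.3-fold. They lay 1856 bp and 1843 bp before the start, and H3K4me3 was the same block. The strongest H3K27ac peak was 5.85-fold and 481 bp after the start in replicate 1. In replicate 2 it was 4.14-fold and 1657 bp before the start.

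**Figure D5:**
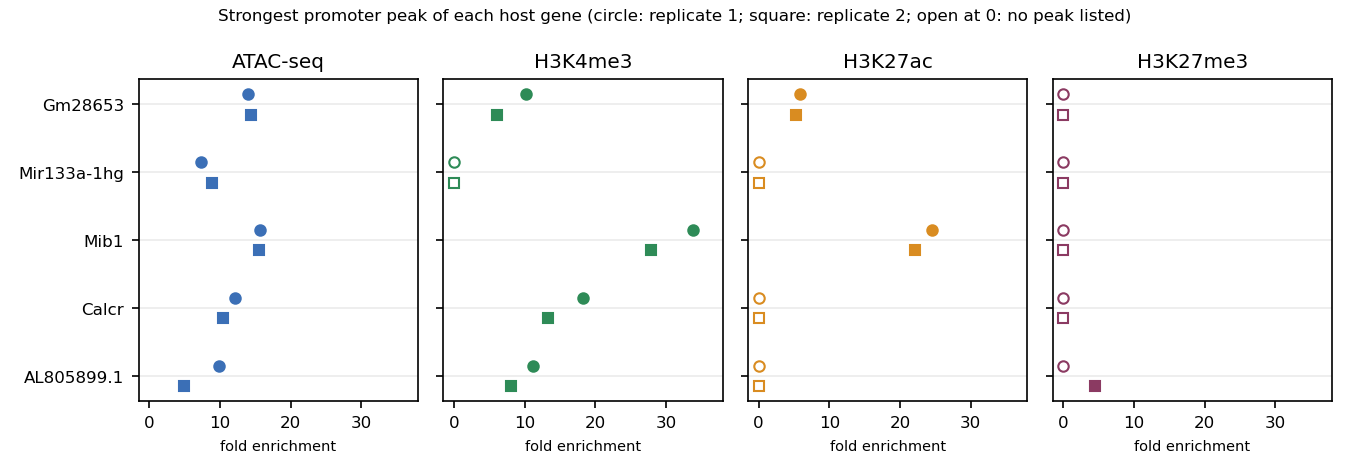
Fold enrichment (horizontal axis) of the strongest peak within 3 kb of a start site of each of the 5 host genes (rows), by feature and replicate (circle for 1, square for 2; open symbols at 0 mean no peak listed). Mib1 has the highest H3K4me3 and H3K27ac, and Mir133a-1hg has ATAC-seq alone.

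The microRNA genes with the most similar values were found from the strongest fold enrichment within 10 kb over the 8 libraries, as the Euclidean distance of log2(fold + 1), leaving out genes within 20 kb of a member. Nearest to Mir206 were Gm27440 (distance 0.647) and Gm27532 (0.678), and the same 2 were nearest to Mir133b. For Mir1a-2 and Mir133a-1 they were Mir5624 (0.0172) and Gm23881 (0.0669). Mir133a-2 had Mir7056 (0.0579) and Gm23251 (0.166), Mir1a-1 had Mir129-2 and Mir129b (0.431 each), and Mir31 had Gm44323 (0.0597) and Gm44405 (0.0617). Mir206 and Mir133b, marked by 3 features, had the most distant neighbours. With peaks in more libraries, more values can differ, so the larger distance does not show an unusual pattern.

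Of 15 other microRNA genes known from muscle or its stem cells, 13 were in the annotation. In both replicates 10 of the 13 had ATAC-seq within 10 kb (52.6% of all microRNA genes), 4 had H3K4me3 (30.2%), 5 had H3K27ac (25.3%) and 2 had H3K27me3 (3.22%). The 2 with H3K27me3, Mir195a and Mir497, lie 241 bp apart and share their peaks. The strongest were 3.67-fold and 3.42-fold, below the medians of the H3K27me3 lists (3.93-fold and 3.765-fold). Mir378a, which lies in Ppargc1b, had H3K4me3 of 30.7-fold and 24.5-fold. Mir486, in Ank1, had H3K4me3 of 16.3-fold and 11.3-fold and H3K27ac of 12.7-fold and 10.7-fold, above the values of Mir206 in both replicates. Mir499, in a myosin gene, had ATAC-seq of 14.5-fold and 13.8-fold and H3K4me3 in replicate 1 only, at 5.56-fold.

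The genes that make and use microRNAs were marked throughout. Of 14 genes, among them Drosha and Dgcr8 (which cut the primary transcript), Dicer1 (which cuts the hairpin) and Ago2 (which carries the guide), 14 had ATAC-seq, 14 had H3K4me3, 14 had H3K27ac and 0 had H3K27me3 at the promoter in both replicates. The shares of all protein-coding genes are given above. H3K4me3 at Dicer1 was 33.0-fold and 29.9-fold, and at Drosha 22.7-fold and 14.4-fold.

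Of 13 targets known for these microRNAs, 13 had ATAC-seq, 13 had H3K4me3, 10 had H3K27ac and 2 had H3K27me3 at the promoter in both replicates. Among all protein-coding genes the shares are 67.8%, 60.8%, 46.6% and 4.81%. Dek, the target of miR-489, had H3K27ac of 32.6-fold and 31.3-fold, and Myf5, the target of miR-31, had 10.3-fold and 13.2-fold. Pax7, the target of miR-1 and miR-206 that defines MuSCs, had H3K27ac of 15.02-fold and 14.7-fold and no H3K27me3. Pax3, its paralog, had no H3K27ac and had H3K27me3 of 4.88-fold and 6.503-fold. The remaining gene with H3K27me3 was Prdm16, a target of miR-133, at 3.75-fold and 4.11-fold. Its replicate 1 peak had a −log10 q of 0.934, and with q of at most 0.05 in both replicates 1 of the 13 targets, Pax3, has H3K27me3.

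Over the whole lists, peak numbers ranged from 6080 to 140937 per library, with ATAC-seq replicate 1 the longest and H3K27me3 the shortest. Of 13 marker genes of MuSCs, 13 had ATAC-seq, 13 had H3K4me3, 12 had H3K27ac (all but Calcr) and 0 had H3K27me3 at the promoter in both replicates. For all protein-coding genes the shares are 67.8%, 60.8%, 46.6% and 4.81%. Promoters of other cell types were in part marked too: H3K27ac was at 3 of 10 genes of myofibres, 1 of 5 of fibro-adipogenic cells, 1 of 5 of endothelial cells and 1 of 5 of blood cells, and ATAC-seq at 9, 3, 5 and 3 of them. Any peak within 3 kb of a start site counts here. The strongest H3K27ac peaks of Cd68, the blood gene with this mark, lay 1729 bp and 2600 bp from its start. Those of Tek, the endothelial gene, lay across a start site in both replicates, at 10.97-fold and 10.2-fold. So did those of Myh1 of myofibres, at 11.3-fold and 7.24-fold. At Mylpf, Actn3 and Dpt the strongest peak lay across a start site in 1 replicate only. The part of other cells in the peaks of the members was not tested.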

How the data were processed

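Peak lists of 8 libraries (2 replicates each of ATAC-seq, H3K4me3, H3K27ac and H3K27me3) were used, 1 list per library with no pooling. According to the methods and the submitters' processing notes, the authors trimmed reads with Trim Galore 0.6.10, aligned them to mm10 with BWA 0.7.17-r1188, removed duplicates and reads of mapping quality under 30 with SAMtools 1.5 and Sambamba, removed blacklisted regions with bedtools, corrected the Tn5 offset of ATAC-seq with deepTools 3.5.5 and called peaks with MACS2 2.2.6. The deposited fold enrichment, as the authors' MACS2 wrote it, is the ratio of the summit's pileup to its local background. Each p-value and q-value was deposited as −log10, and the score column is the authors' rescaled −log10 value. The deposited H3K27me3 lists go down to a −log10 p of 3.01, and their −log10 q down to 0 and 0.0295, whereas the lowest −log10 q of the other lists was 1.32 to 2.02. Weak H3K27me3 peaks are thus listed that the other lists would omit.

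From these files, peaks were overlapped, from 1 bp, with GENCODE M21 and RefSeq genes (GRCm38.p6, the same build: 0 peaks lay beyond a chromosome end) in Python 3.11.15 with numpy 2.4.6 and pandas 2.3.3. A gene counted as marked where both replicates held a peak. Overlap counting was tested on simulated peaks. The labels set no conditions against each other within an assay, so no test was made: values are given per replicate and shares beside those of all genes of a class. The lists hold no read numbers, so depth is unknown and no counting error can be given. A gene without a peak had no call at an unknown depth, which does not show that the feature is absent. Named were the 8 members, their host genes, genes of the fixed lists (microRNA biogenesis, known targets, other microRNA genes, cell type markers) and, per locus, the 2 most similar microRNA genes. The members and lists were chosen with earlier results of these data known. Alternatives were other thresholds, overlaps, windows, each replicate alone and RefSeq hosts. Input libraries and the editing samples were not analysed here.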

Additional observations from a re-analysis of the deposited data

How the results depend on the processing

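Of 117 alternative values of the counts and shares, 99 stayed within 1.5 times the value reported and 18 did not. Counting 5 loci, chosen after seeing the data, gave 3 loci with ATAC-seq, 1 with H3K4me3 and 1 with H3K27ac. For H3K4me3 within 10 kb, 1 member remained with at least 50% of the peak inside and 0 with a window of 5 kb. Using 1 replicate alone, members with H3K27ac over the gene ranged from 0 to 1, members with H3K27me3 within 10 kb from 0 to 1, and host promoters with H3K27me3 from 0 to 1. The share of all microRNA genes with H3K27me3 within 10 kb was 0.409% with −log10 q of at least 5, 2.13% with q of at most 0.05, 5.09% with a window of 20 kb, and 3.68% to 5.04% with 1 replicate alone. The share with H3K27me3 over the gene was 0.0908% with −log10 q of at least 5 and 0.50% to 0.772% with 1 replicate alone. With at least 50% of the peak inside the gene, which a hairpin shorter than most peaks rarely allows, the shares fell to 0.272% for ATAC-seq and 0 for H3K4me3, H3K27ac and H3K27me3. With only peaks at least 150 bp wide, chosen after seeing the data, 4 members kept ATAC-seq in both replicates. RefSeq host genes, also chosen after seeing the data, gave 5, 3, 2 and 0 of 6 promoters with ATAC-seq, H3K4me3, H3K27ac and H3K27me3. The replicate libraries number 2 per feature, their depth is unknown, and the cause of these changes was not tested.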

Other observations

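The ATAC-seq peak near Mir31 belongs to a class of strong, narrow peaks in replicate 1. Of the 8874 peaks of that list at least as strong as it (18.1-fold), 4299 (48.4%) had no overlapping peak in replicate 2. Among the 4064 of these strong peaks that were under 150 bp wide, 4000 (98.4%) had none, and among the wider ones 6.22% had none. The median width was 117 bp over the whole list of replicate 1 and 184 bp over that of replicate 2. On assembled chromosomes, the 3909 strong narrow peaks of replicate 1 alone had a median GC content of 37.7%, and the 4548 strong peaks found in both replicates 60.7%. The peak near Mir31 had a GC content of 62.5%. Bases soft-masked as repeats in the reference made up 15.8% of the Mir31 peak, a median of 18.3% of the narrow ones and a median of 3.60% of those found in both.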
